A study of Homo sapiens with 12 samples.

Results

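HOX genes encode homeodomain transcription factors that give cells their position along the body axis. In mammals they lie in the clusters A, B, C and D, and genes of the same paralogue number in different clusters descend from a common ancestor. Low paralogue numbers lie towards the 3′ end of a cluster and are used in the head and neck, and high numbers lie towards the 5′ end and are used in the trunk and tail. Adult cells, and cell lines grown from them, often keep part of such a code, and in the gut the genes of higher number are known for the hindgut. The members described here are all genes whose symbol is HOX, a cluster letter A to D and a number, each read from its brightest probe set, the one with the highest mean over the arrays. There were 29 members among the 19774 genes measured, and they were chosen by symbol, not by level. Of the genes of RefSeq they covered 10 of 10 in cluster B, 9 of 9 in cluster C and 9 of 9 in cluster D, but 1 of 11 in cluster A, HOXA2. The other 10 HOXA genes were not analysed here.

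The 3 established cell lines HUTU-80, MDST8 and NCI-H716, which the labels call colorectal cancer lines whose miR-200 loci are methylated, were profiled on 12 Affymetrix U133 Plus arrays. Per the protocol, cells were sorted for the green fluorescent marker 48 hours after they met the lentivirus, and RNA was taken on day 7. The groups were control (3 arrays, 1 per line), miR-200c141 (4 arrays, 2 of them of HUTU-80), miR-200ba429 (3 arrays, 1 per line) and both clusters (2 arrays, of MDST8 and NCI-H716). Cells with both clusters were miR-200ba429 cells that received the miR-200c141 virus 24 hours after the sort. The titles of the HUTU-80 pair with miR-200c141 end in 1:3 and 1:5, and the sources used here do not say what these ratios stand for or which virus, if any, went into the control. With that pair averaged there were 11 samples, 3 of HUTU-80 and 4 of each other line. The labels do not say whether the arrays of a line came from separate cultures, so the spread between them may be technical, and each line is a single isolate.

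The constructs carry the miR-200 family, microRNAs that are known to repress ZEB1 and ZEB2. The mature sequences of their members (RefSeq, GRCh38.p14) are shown because their seeds, bases 2 to 8 in capitals, divide the family into a pair of groups that each construct joins. The first 3 share the seed AAUACUG and the other 2 share AACACUG.
hsa-miR-200c-3p: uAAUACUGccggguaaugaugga
hsa-miR-200b-3p: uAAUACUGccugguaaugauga
hsa-miR-429: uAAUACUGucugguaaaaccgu
hsa-miR-141-3p: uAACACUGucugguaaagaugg
hsa-miR-200a-3p: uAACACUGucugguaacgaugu
miR-200c and miR-141 lie on chromosome 12 (chr12:6963742-6963764 and chr12:6964155-6964176, plus strand) and form the miR-200c141 construct. miR-200b, miR-200a and miR-429 lie on chromosome 1 (chr1:1167160-1167181, chr1:1167916-1167937 and chr1:1169055-1169076, plus strand) and form miR-200ba429. Thus each construct brings both seeds.

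Levels are log2 intensities, so 1 unit is a 2-fold difference of signal, and they are compared here between samples for the same gene. A gene was taken as above background in a line when its mean there exceeded 5.429, the highest value of the 23 nonspecific control probe sets on any array. In bulk RNA, fewer cells that express a gene and less RNA per cell cannot be told apart. The correlation over all genes was at least 0.978 between arrays of a line and at most 0.885 between lines. Of the intestinal epithelial markers 1 of 9 was above background for HUTU-80, 0 of 9 for MDST8 and 7 of 9 for NCI-H716. Of the mesenchymal markers the counts were 7, 6 and 4 of 8, and of the neuroendocrine markers 0, 1 and 4 of 5 in the same order. Immune and endothelial markers were at background in every line (0 of 4 each). These counts take in the construct arrays. On the control arrays alone they were 0, 0 and 6 of 9 for the epithelial, 7, 7 and 3 of 8 for the mesenchymal and 0, 1 and 4 of 5 for the neuroendocrine markers. EPCAM, the epithelial marker counted in HUTU-80, was 4.42 in its control and 9.28 to 10.63 with the constructs, and CDH1 in NCI-H716 was 4.01 in the control and 6.64 to 9.03 with them. COL1A1 in NCI-H716 was 3.19 in the control and 5.12 to 7.57 with the constructs. Thus none of the listed epithelial markers was above background in the control of HUTU-80 or MDST8.

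Among the members measured, with only HOXA2 of cluster A, a common core mostly of cluster B was above background in all lines. By line means HUTU-80 added 3 members of its own, and MDST8 and NCI-H716 added 1 each. HUTU-80 had 15 of the 29 members above background (51.7%), MDST8 12 (41.4%) and NCI-H716 11 (37.9%), beside 46.8%, 48.7% and 47.7% of all genes. The core held 9 members, HOXB2, HOXB3, HOXB5, HOXB6, HOXB7, HOXB8, HOXB9, HOXC4 and HOXC6. By line means, HOXB4, HOXC8 and HOXC13 were above background in HUTU-80 alone, HOXD8 in MDST8 alone and HOXB13 in NCI-H716 alone. On the control arrays alone 15, 13 and 11 members passed for HUTU-80, MDST8 and NCI-H716. There HOXC13 passed in MDST8 too (5.66) and HOXB4 in NCI-H716 too (5.54). HOXA2 passed by its means in HUTU-80 and NCI-H716, though the NCI-H716 control read 5.414, just below the level. HOXC9 and HOXC10 passed in HUTU-80 and MDST8. The remaining 12 members, HOXB1, HOXC5, HOXC11, HOXC12, HOXD1, HOXD3, HOXD4, HOXD9, HOXD10, HOXD11, HOXD12 and HOXD13, lay between 2.43 and 5.322 on every array, which says only that they were not detected above background.

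**Figure D1:**
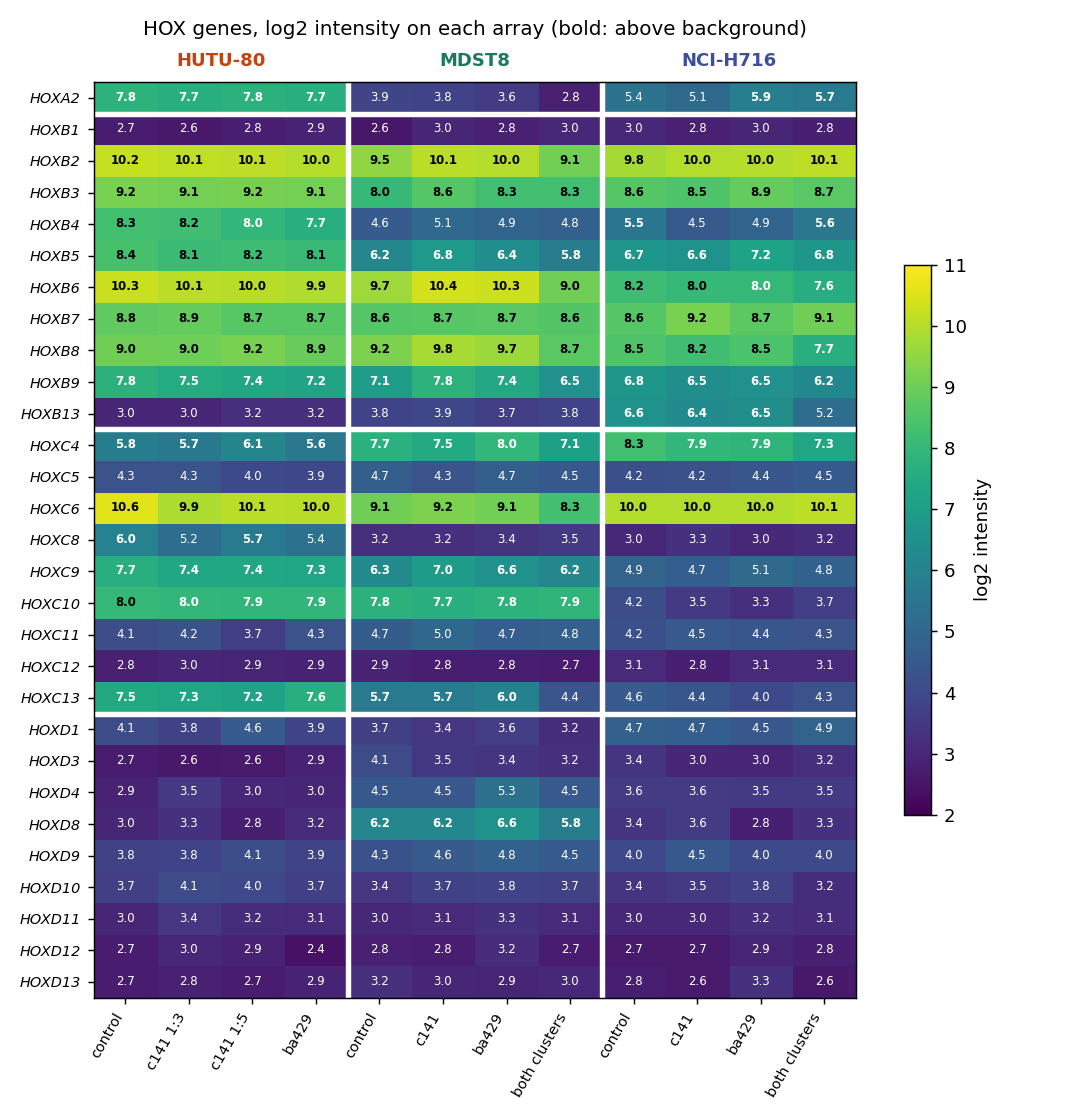
Log2 intensity of the 29 HOX genes (rows, by cluster and paralogue number) on the 12 arrays (columns, by line and construct), with values above the background level of 5.429 in bold. For HUTU-80, MDST8 and NCI-H716 in turn, 8, 7 and 8 of the 10 members of cluster B and 6, 4 and 2 of the 9 of cluster C have means above that level, and HOXD8 in MDST8 is the only row of cluster D with bold values.

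By position, over all clusters, members of middle number (4 to 8) were the most often above background. They were 8 of 11 for HUTU-80, 7 for MDST8 and 6 for NCI-H716. Of the anterior members (1 to 3) 3 of 6, 2 of 6 and 3 of 6 passed, and of the posterior members (9 to 13) 4, 3 and 2 of 12. The classes differ in their share of cluster D, where only HOXD8 was above background, in MDST8. Cluster D gave HOXD1 and HOXD3 to the anterior, HOXD4 and HOXD8 to the middle and HOXD9 to HOXD13 to the posterior members. In NCI-H716 the lead of the middle over the anterior members was narrow and rested on cluster D. Outside it, HOXB1 was the only anterior member at background there, beside HOXB4, HOXC5 and HOXC8 of the middle members. In cluster B the highest number above background was 9 in HUTU-80 and MDST8 and 13 in NCI-H716. In cluster C it ran the other way by line means, 13 for HUTU-80, 10 for MDST8 and 6 for NCI-H716. The limit in MDST8 rests on its array with both clusters, where HOXC13 read 4.38. HOXC13 was above the level in the MDST8 control (5.66) and with the single constructs (5.67 and 5.96). In HUTU-80 HOXB2 to HOXB9 were all above background, and the gaps in cluster C were HOXC5, HOXC11 and HOXC12. In cluster B HOXB1 was at background in every line and HOXB4, by its means, in MDST8 and NCI-H716. A few members lay close to the level: HOXC13 in MDST8 just below it (mean 5.417), HOXA2 in NCI-H716 just above (5.516) and HOXC8 in HUTU-80 just above (5.607).

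**Figure D2:**
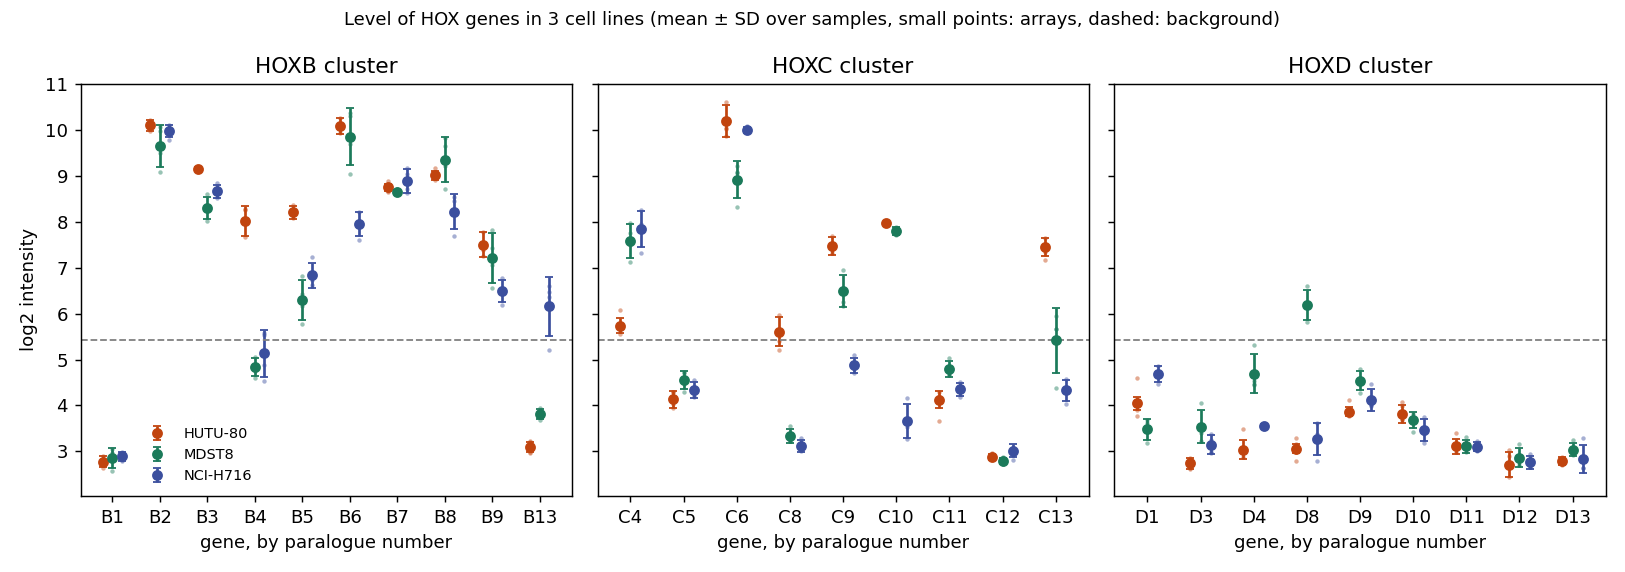
Log2 intensity (vertical axis) of the HOX genes of clusters B, C and D by paralogue number (horizontal axis), as mean ± SD over the 3 samples of HUTU-80 and the 4 samples each of MDST8 and NCI-H716, with single arrays as small points and the background level dashed. Differences are to be read within a gene: HOXB13 stands out in NCI-H716, HOXC8 and HOXC13 in HUTU-80, HOXD8 in MDST8, and HOXC9 and HOXC10 lie below the line in NCI-H716 only.

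The lines were compared with limma across all 19774 genes with the construct as a term, and a gene was called at an adjusted p under 0.05 and a difference of at least 1 log2 unit. Between HUTU-80 and MDST8, 9 of 29 members were called (31.0%, against 20.2% of all genes), 6 higher in HUTU-80 and 3 lower, against 9.19% and 11% of all genes. Between HUTU-80 and NCI-H716, 10 were called (34.5%, against 22.2% of all genes), 8 higher in HUTU-80 and 2 lower, against 11% and 11.1%. Between MDST8 and NCI-H716, 11 were called (37.9%, against 24.9% of all genes), 7 higher in MDST8 and 4 lower, against 13.3% and 11.6%. With each array centred on its median, the last split became 4 higher and 4 lower, where 63.6% had been higher. The comparisons of HUTU-80 with MDST8 and with NCI-H716 then called 11 members each. HOXB3 and HOXC9 were added as higher in HUTU-80 than in MDST8, and HOXB9 as higher than in NCI-H716. Among the members above background somewhere, HUTU-80 was highest without overlap of samples in 8 (HOXA2, HOXB3, HOXB4, HOXB5, HOXC8, HOXC9, HOXC10 and HOXC13), MDST8 in 1 (HOXD8) and NCI-H716 in 1 (HOXB13). Of the 11163 genes above background in at least 1 line, 20.5%, 19.2% and 19.5% were highest in these lines in this way, and HUTU-80 has 3 samples where the others have 4. The median difference over the members was 0.098, 0.013 and 0.199 in the order of the comparisons, beside 0.041, 0.031 and −0.009 over all genes. These p-values rest on the spread between arrays of a line.

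**Figure D3:**
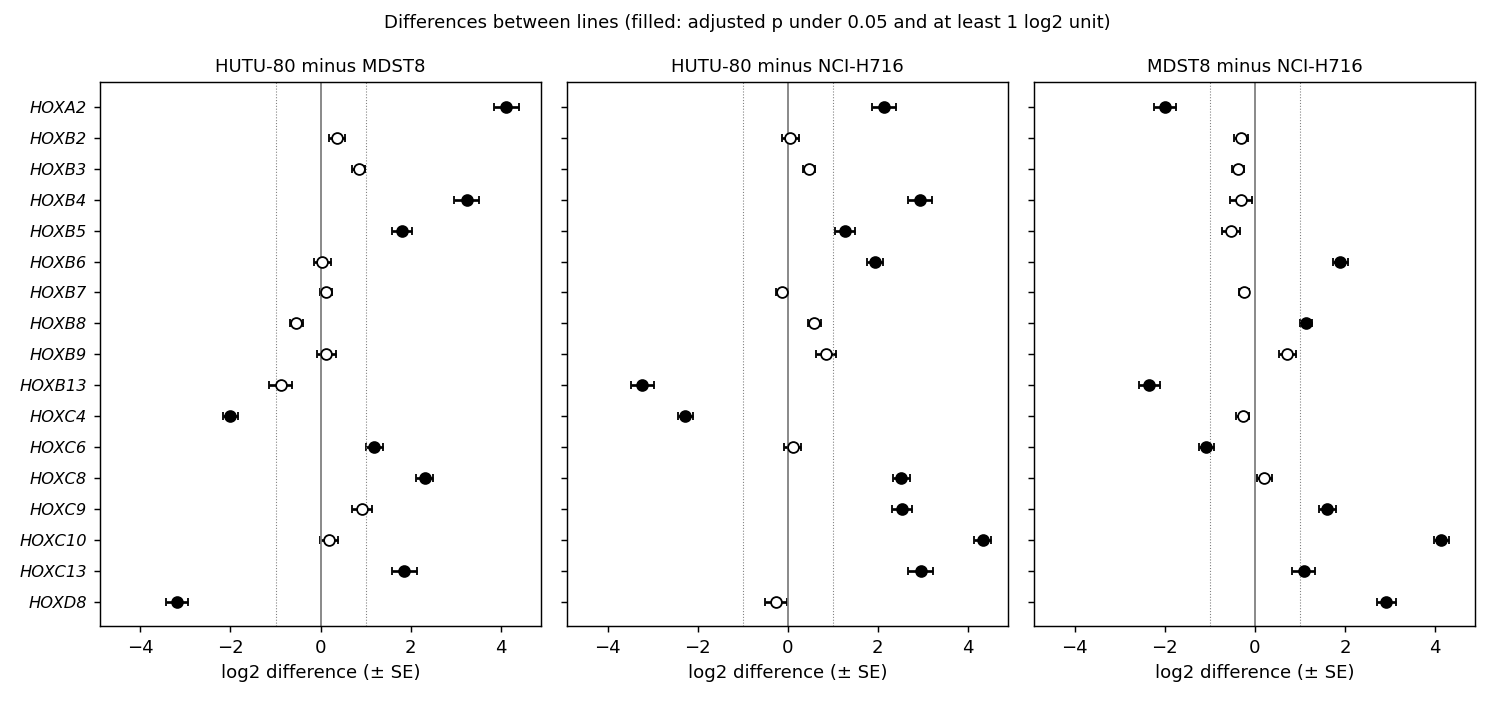
Fitted log2 difference ± SE between lines (horizontal axis) for the 17 members above background in at least 1 line (rows), with filled points for called differences and dotted lines at 1 log2 unit. HOXA2, HOXB4, HOXB13, HOXC4, HOXC8, HOXC9, HOXC10, HOXC13 and HOXD8 reach beyond 2 units in at least 1 panel, while HOXB2, HOXB3, HOXB7 and HOXB9 have unfilled points in all 3 panels.

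Cluster B lies on chromosome 17 and supplied most of the common core. HOXB2 and HOXB3, anterior genes of the hindbrain, differed little. HOXB2 read 9.98 to 10.21 on the HUTU-80 arrays, 9.08 to 10.07 on those of MDST8 and 9.79 to 10.10 on those of NCI-H716, and the lines overlapped. HOXB3 was 9.15 ± 0.05 (SD, n = 3) for HUTU-80, 8.30 ± 0.24 (n = 4) for MDST8 and 8.67 ± 0.14 (n = 4) for NCI-H716. HUTU-80 was above the other lines without overlap in HOXB3, but the difference from MDST8 of 0.85 ± 0.14 (SE) had an adjusted p of 0.0003986 in limma and fell short of 1 log2 unit. With arrays centred on their median this difference was called. HOXB7, a gene often raised in carcinomas, was 8.75 ± 0.07, 8.66 ± 0.05 and 8.90 ± 0.26 in HUTU-80, MDST8 and NCI-H716, the narrowest range of the 17 members above background. Its 3 probe sets gave like levels in every line. HOXB9, a gene of the thoracic axis, overlapped between neighbouring lines as well (7.50 ± 0.27, 7.21 ± 0.54 and 6.49 ± 0.24).

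HOXB4, known for the expansion of blood stem cells, separated HUTU-80 from both other lines. It read 8.28 in the HUTU-80 control, 8.25 and 7.96 with miR-200c141 and 7.66 with miR-200ba429. In MDST8 it stayed between 4.61 and 5.06 and in NCI-H716 between 4.54 and 5.57, where the control and the sample with both clusters lay just above background. The difference was 3.24 ± 0.27 (SE) from MDST8 and 2.94 ± 0.27 from NCI-H716, with adjusted p in limma of 1.61e-06 and 3.117e-06. MDST8 and NCI-H716 overlapped. HOXB5, needed in the enteric nervous system, was also highest in HUTU-80 (8.21 ± 0.15, against 6.30 ± 0.44 in MDST8 and 6.84 ± 0.27 in NCI-H716), by 1.82 ± 0.22 and 1.28 ± 0.22 log2 units (limma adjusted p 3.785e-05 and 0.0005072). The probe set used for HOXB5 is of a type that can share probes with other transcripts, and its other probe set gave the same order of lines (7.57 for HUTU-80, 5.53 for MDST8 and 5.72 for NCI-H716).

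HOXB6 and HOXB8 were lowest in NCI-H716, and only HOXB6 was called against both other lines. HOXB6 stood at 10.09 ± 0.17 in HUTU-80 and 9.85 ± 0.62 in MDST8, which overlapped, and at 7.95 ± 0.26 in NCI-H716, lower by 1.94 ± 0.19 and 1.90 ± 0.17 (SE; limma adjusted p 4.238e-06 and 1.495e-06). HOXB8, which can hold myeloid progenitors in an immature state, was highest in MDST8 (9.36 ± 0.50), overlapped with HUTU-80 (9.02 ± 0.10) and was lowest in NCI-H716 (8.23 ± 0.39). HUTU-80 was above NCI-H716 in HOXB8 by 0.59 ± 0.15 (SE, limma adjusted p 0.005852), which was not called for its size. The difference between MDST8 and NCI-H716 was 1.13 ± 0.13 (SE, limma adjusted p 1.71e-05), and it fell below 1 log2 unit when arrays were centred on their median. With the mean of all probe sets HOXB6 and HOXB8 also fell below that limit between MDST8 and NCI-H716, as their other probe sets were at background on every array.

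HOXB13, the most posterior gene of the cluster and known from distal hindgut and prostate, was read in NCI-H716 alone. Its 4 arrays gave 6.61 in the control, 6.36 with miR-200c141, 6.46 with miR-200ba429 and 5.21 with both clusters, the last below background. All arrays of HUTU-80 (2.97 to 3.22) and MDST8 (3.68 to 3.95) lay far lower, with no overlap. NCI-H716 was higher by 3.23 ± 0.26 log2 units than HUTU-80 and by 2.34 ± 0.23 than MDST8 as signals (SE; limma adjusted p 8.944e-07 and 4.052e-06), sizes that are limited by background in the other lines. A dimmer probe set of HOXB13 had the same order (3.21 for HUTU-80, 3.61 for MDST8 and 4.80 for NCI-H716) but stayed at background on all arrays.

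By line means cluster C, on chromosome 12, reached furthest to its posterior end in HUTU-80, though HOXC13 was also above background in the MDST8 control. HOXC13, known as a regulator of hair keratins, read 7.46 in the HUTU-80 control, 7.34 and 7.18 with miR-200c141 and 7.65 with miR-200ba429. In MDST8 it was 5.66 in the control, 5.67 with miR-200c141, 5.96 with miR-200ba429 and 4.38 with both clusters, and in NCI-H716 it stayed between 4.04 and 4.58. HUTU-80 thus lay above both other lines without overlap, by 1.86 ± 0.29 and 2.95 ± 0.29 (SE; limma adjusted p 0.0002176 and 4.627e-06). HOXC13 was also called between MDST8 and NCI-H716 (1.09 ± 0.26), where both means were at background and the call ended with arrays centred on their median (0.933) and without the miR-200ba429 array of MDST8 (0.913) or NCI-H716 (0.830). HOXC8, a gene of the brachial and thoracic level, was weakly above background in HUTU-80 (5.98 in the control, 5.202 and 5.673 with miR-200c141, 5.41 with miR-200ba429) and no higher than 3.54 on any array of the other lines, differences of 2.31 ± 0.19 and 2.53 ± 0.19 (limma adjusted p 1.277e-06 and 4.974e-07). Without the control array, HOXC8 fell to background in HUTU-80 and the count of members there became 14.

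HOXC10 and HOXC9 were shared by HUTU-80 and MDST8. HOXC10, a gene of lumbar motor neurons and the hindlimb, lay between 7.94 and 8.01 on the HUTU-80 arrays and between 7.71 and 7.90 on those of MDST8, a tight band in each line. On the NCI-H716 arrays it lay between 3.26 and 4.16, at background. NCI-H716 was lower by 4.33 ± 0.19 than HUTU-80 and by 4.14 ± 0.17 than MDST8 (SE; limma adjusted p 7.159e-09 and 3.239e-09), the largest difference of any member in either comparison. The samples of HUTU-80 and MDST8 did not overlap for HOXC10, but their difference was 0.18 ± 0.19 (limma adjusted p 0.5104). HOXC9, which shapes thoracic motor neurons, stepped down over the lines, from 7.47 ± 0.19 for HUTU-80 to 6.49 ± 0.35 for MDST8 and 4.87 ± 0.17 for NCI-H716, and no neighbours in this order overlapped. The first step was 0.92 ± 0.22 and not called for its size, and the second was 1.61 ± 0.19 (SE, limma adjusted p 2.27e-05). With arrays centred on their median the first step was called too.

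HOXC4 and HOXC6 had different lines at their lowest. HOXC4, a gene of lymphoid cells among others, was lowest in HUTU-80 (5.80 in the control, 5.65 and 6.08 with miR-200c141, 5.56 with miR-200ba429) and lay between 7.12 and 7.98 in MDST8 and between 7.32 and 8.26 in NCI-H716. HUTU-80 was lower by 2.01 ± 0.17 and 2.28 ± 0.17 (SE; limma adjusted p 1.424e-06 and 4.01e-07), and the other lines overlapped. HOXC6, known from the thoracic axis and as a marker of prostate cancer, was lowest in MDST8 instead (8.92 ± 0.40), against 10.20 ± 0.36 in HUTU-80 and 9.997 ± 0.065 in NCI-H716. MDST8 was lower than HUTU-80 by 1.19 ± 0.19 and than NCI-H716 by 1.08 ± 0.17 (SE; limma adjusted p 0.0002704 and 0.0001827). The first call ended without the HUTU-80 control array and the second without either array with both clusters, since the difference then fell below 1 log2 unit. In RefSeq HOXC4, HOXC5 and HOXC6 overlap and can share exons, so a probe set of one may read transcripts that start at another. HOXC5 was at background in every line.

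Promoter windows were at hand in RefSeq (GRCh38.p14) for 12 of the 29 members. Only HOXA2, HOXC4 and HOXD8 of these were above background in any line, and the 250 bases before their starts are shown because each was called in at least 2 of the 3 comparisons of lines. HOXA2 lies at chr7:27102684-27102933 (minus strand), HOXC4 at chr12:54016638-54016887 (plus strand) and HOXD8 at chr2:176129455-176129704 (plus strand). Capitals mark a match to TGATTNAT, a motif of HOX with PBX, or to TTTATG, a motif of CDX factors, searched on both strands.
HOXA2: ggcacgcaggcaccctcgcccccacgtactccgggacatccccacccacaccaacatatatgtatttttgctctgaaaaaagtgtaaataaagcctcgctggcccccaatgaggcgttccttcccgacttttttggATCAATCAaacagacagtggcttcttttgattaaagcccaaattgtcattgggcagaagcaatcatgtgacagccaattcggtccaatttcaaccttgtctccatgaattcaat
HOXC4: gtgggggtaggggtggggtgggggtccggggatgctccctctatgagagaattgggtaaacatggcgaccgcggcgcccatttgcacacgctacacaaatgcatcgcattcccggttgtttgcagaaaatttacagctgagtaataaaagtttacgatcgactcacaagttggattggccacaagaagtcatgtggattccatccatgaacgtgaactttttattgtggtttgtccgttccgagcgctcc
HOXD8: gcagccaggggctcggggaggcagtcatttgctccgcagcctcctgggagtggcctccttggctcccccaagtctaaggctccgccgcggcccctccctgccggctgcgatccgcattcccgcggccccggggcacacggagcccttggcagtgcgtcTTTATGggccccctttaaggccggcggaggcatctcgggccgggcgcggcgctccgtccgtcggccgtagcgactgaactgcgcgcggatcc
The HOXA2 window held the HOX with PBX motif on the strand opposite to the gene, its first base 114 bases before the start, and the HOXD8 window held the CDX motif on the strand of the gene, 92 bases before it. The HOXC4 window held neither and is letter for letter the window of HOXC5. Of 35116 windows of this length in the table, 2.5% held the HOX with PBX motif and 9.6% the CDX motif, and of the 12 member windows 2 (HOXA2 and HOXD11) and 1 (HOXD8) did. The windows of HOXA2, HOXC4 and HOXD8 held 8, 14 and 28 CpG pairs, where the median was 11 over all windows and 18.5 over the members. A match describes letters and no binding was measured.

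HOXA2, on chromosome 7 and known for the patterning of the hindbrain and the second pharyngeal arch, took a separate level in each line. HUTU-80 read 7.83 in the control, 7.69 and 7.78 with miR-200c141 and 7.66 with miR-200ba429. NCI-H716 lay about the background level, at 5.41 in the control, 5.10 with miR-200c141, 5.85 with miR-200ba429 and 5.69 with both clusters, and MDST8 lay at background on all arrays (2.82 to 3.89). No lines overlapped, and HUTU-80 was higher than MDST8 by 4.12 ± 0.27 and than NCI-H716 by 2.14 ± 0.27, and NCI-H716 than MDST8 by 1.99 ± 0.24 (SE; limma adjusted p 2.286e-07, 4.677e-05 and 2.662e-05).

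In cluster D, on chromosome 2, HOXD8 was the only member above background, and only in MDST8. Its arrays read 6.15 in the control, 6.17 with miR-200c141, 6.61 with miR-200ba429 and 5.83 with both clusters, against at most 3.30 in HUTU-80 and 3.61 in NCI-H716. MDST8 was higher by 3.19 ± 0.24 and 2.92 ± 0.22 (SE; limma adjusted p 7.313e-07 and 3.726e-07). HOXD4, on the 3′ side of HOXD8, was called higher in MDST8 too (by 1.69 ± 0.22 over HUTU-80 and 1.14 ± 0.19 over NCI-H716), and HOXD1 higher in NCI-H716 than in MDST8 (by 1.21 ± 0.17), but both were at background in all lines, so these are differences of dim signals. The call of HOXD1 ended with the mean of all probe sets (−0.484 for MDST8 against NCI-H716), and that of HOXD4 against NCI-H716 ended with arrays centred on their median (0.989) or when the miR-200ba429 array of MDST8 was left out (0.917).

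HOX proteins bind DNA with cofactors of the PBX, MEIS and PKNOX families, of which 8 of 9 were measured. The counts of this and the following lists stand beside 20.2%, 22.2% and 24.9% of all genes called between HUTU-80 and MDST8, HUTU-80 and NCI-H716, and MDST8 and NCI-H716. Between HUTU-80 and MDST8, 1 of the 8 was called higher and 2 lower (median difference −0.219), between HUTU-80 and NCI-H716 3 and 1 (0.461), and between MDST8 and NCI-H716 1 and 1 (0.115). MEIS1 was 9.09 ± 0.18 in NCI-H716 and, by its means, at background in HUTU-80 (4.04 ± 0.38) and MDST8 (5.33 ± 0.30). The differences from NCI-H716 were −5.14 ± 0.22 for HUTU-80 and −3.76 ± 0.19 for MDST8. In MDST8 MEIS1 read 5.567 in the control and 5.458 with miR-200ba429, both just above the level. It read 5.403 with miR-200c141 and 4.902 with both clusters. Its relative MEIS2 was highest in HUTU-80 (10.90 ± 0.14, against 8.70 ± 0.20 in MDST8 and 9.26 ± 0.17 in NCI-H716). PBX3 was highest in MDST8 (11.02 ± 0.07) and lowest in NCI-H716 (8.02 ± 0.34), a difference of 3.01 ± 0.12, and MEIS3 was higher in HUTU-80 (6.10 ± 0.33) than in NCI-H716 (4.34 ± 0.44) by 1.72 ± 0.21. Thus each line had another cofactor highest.

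The ParaHox genes are sisters of the HOX clusters, and CDX2 among them sets intestinal identity and is known to regulate HOX genes. Of 6 measured only CDX2 was above background, in NCI-H716 alone (5.53 in the control, 6.21 with miR-200c141, 5.57 with miR-200ba429 and 5.62 with both clusters). It was higher there by 1.79 ± 0.24 than in HUTU-80 and by 2.36 ± 0.21 than in MDST8 (SE; limma adjusted p 6.803e-05 and 2.02e-06), and no ParaHox gene was called between HUTU-80 and MDST8. NCI-H716 is also the line with HOXB13 and with 7 of 9 intestinal epithelial markers above background, and the part of this in the HOXB13 level was not tested.

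Other genes of gut regions gave each line a different set. Of 12 measured genes of foregut and small intestine, 2, 4 and 3 were above the level in HUTU-80, MDST8 and NCI-H716, and of 9 genes of hindgut and colon 0, 1 and 3. Of the foregut and small intestine genes, 2 were called higher and 5 lower in HUTU-80 than in MDST8, 2 and 4 in HUTU-80 than in NCI-H716, and 2 and 3 in MDST8 than in NCI-H716. SOX2, a foregut factor, was 11.55 ± 0.05 in HUTU-80, 8.80 ± 0.92 in MDST8 and at background in NCI-H716 (3.12 ± 0.26). FOXA2, a factor of gut endoderm, was 10.10 ± 0.24 in NCI-H716 but 4.29 ± 0.21 for HUTU-80 and 5.59 ± 0.66 for MDST8, and BRINP3 was high in NCI-H716 as well (9.81 ± 0.22, and 2.80 ± 0.17 in HUTU-80). GATA4 was above background in MDST8 alone (6.06 ± 0.48), and GATA6 was higher in HUTU-80 (8.57 ± 0.51) than in MDST8 (6.13 ± 0.06). Of the hindgut and colon genes 0, 0 and 1 were called higher and 1, 3 and 2 lower in the 3 comparisons. TFF3, a secreted peptide of goblet cells, was 12.52 ± 0.25 in NCI-H716 and at background in the other lines, and TBX3 was highest in MDST8 (9.06 ± 0.36).

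Of 12 HOX cluster RNAs measured, 4 were above background for HUTU-80, 1 for MDST8 and 2 for NCI-H716. Called higher and lower were 4 and 1 between HUTU-80 and MDST8, 3 and 3 between HUTU-80 and NCI-H716, and 1 and 4 between MDST8 and NCI-H716. The transcripts named next were chosen after their values were seen. HOXA-AS2 of the HOXA cluster was highest in HUTU-80, as HOXA2 was (6.31 ± 0.44, 3.84 ± 0.45 in MDST8 and 4.64 ± 0.19 in NCI-H716). HOXB-AS3, which overlaps HOXB5 and HOXB6, and HOXB-AS4, beyond HOXB9, were above background in HUTU-80 alone (5.89 ± 0.40 and 5.70 ± 0.17). HOXB6, though, overlapped between HUTU-80 and MDST8, and without median centring HOXB9 was called in none of the comparisons above. HOXB-AS1, which overlaps HOXB2 and HOXB3, was 5.88 ± 0.28 for HUTU-80, 4.47 ± 0.30 for MDST8 and 5.77 ± 0.29 for NCI-H716. It was called lower in MDST8 than in both (by 1.52 ± 0.20 and 1.30 ± 0.18). Without median centring, neither HOXB2 nor HOXB3 was called in the comparisons above. HOXD-AS2, beside HOXD8, was highest in MDST8 (7.41 in the control, 6.60 with miR-200c141, 7.32 with miR-200ba429 and 5.88 with both clusters), higher by 4.09 ± 0.31 than in HUTU-80 and by 1.98 ± 0.28 than in NCI-H716 (SE; limma adjusted p 7.525e-07 and 8.223e-05). HAGLR, which overlaps HOXD1, was above background in NCI-H716 alone (5.63 ± 0.48, against 3.45 ± 0.15 in HUTU-80), and HOXA-AS3 was called lower in MDST8 than in NCI-H716 (by 1.80 ± 0.19) with both at background, as was HOXA11-AS (by 1.59 ± 0.21, NCI-H716 over MDST8).

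**Figure D4:**
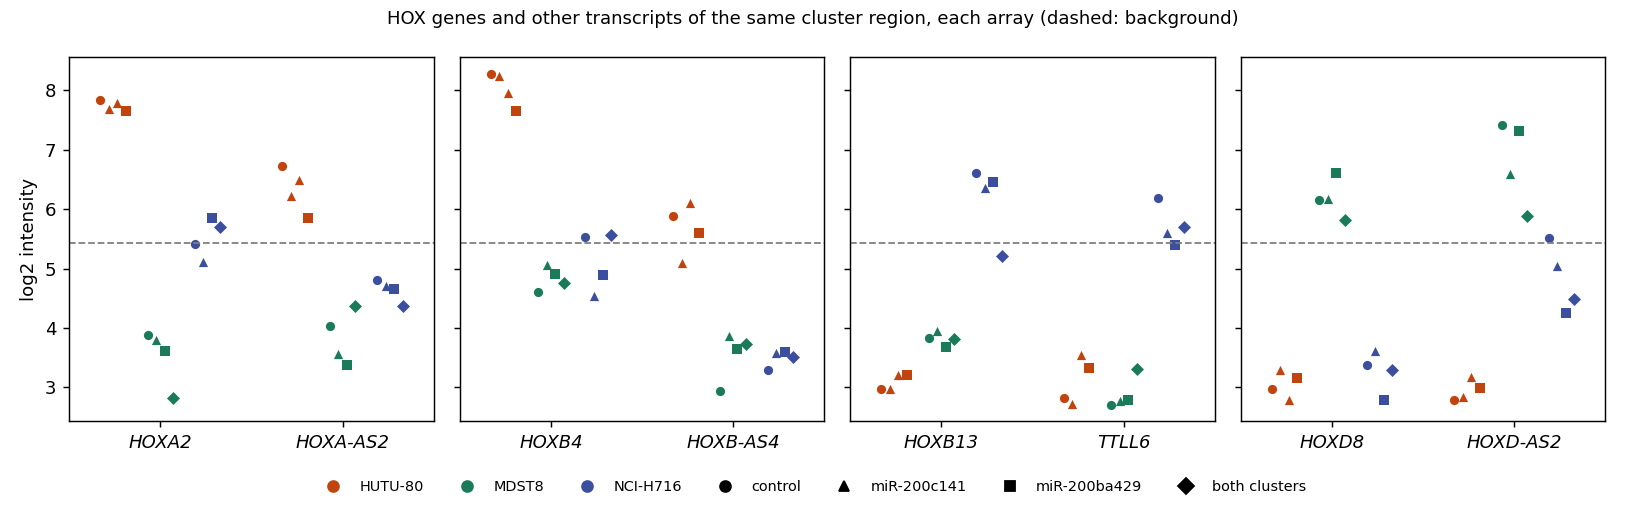
Log2 intensity on each of the 12 arrays (vertical axis) of HOXA2, HOXB4, HOXB13 and HOXD8, each beside another transcript of the same cluster region, coloured by line and shaped by construct, with the background level dashed. In each panel both transcripts are highest in the same line, HUTU-80 for HOXA2 and HOXB4, NCI-H716 for HOXB13 and MDST8 for HOXD8. The partners were chosen after their values were seen, so this match follows from the choice. HOXB-AS4 lies beyond HOXB9 and not next to HOXB4. In gene order PRAC1 is next to HOXB13 on the side away from TTLL6, with PRAC2 beside it. PRAC1 and PRAC2 were at background in every line, NCI-H716 included.

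Of 23 protein-coding neighbours in and around the clusters, 16, 15 and 16 were above the level in HUTU-80, MDST8 and NCI-H716, and 2 were called higher and 1 lower between HUTU-80 and MDST8, 1 and 3 between HUTU-80 and NCI-H716, and 2 and 3 between MDST8 and NCI-H716. On the HOXB13 side of cluster B, TTLL6, a tubulin-modifying enzyme, was above background in NCI-H716 alone (5.73 ± 0.33, but 3.10 ± 0.25 for HUTU-80 and 2.90 ± 0.28 for MDST8), while PRAC1 and PRAC2, between HOXB9 and HOXB13, were at background in every line. SKAP1, a T cell adaptor gene beyond HOXB1, was above background in HUTU-80 alone (6.93 ± 0.52, and 4.49 ± 0.31 in MDST8 and 3.24 ± 0.21 in NCI-H716). By cluster A, SNX10 was low in MDST8 (4.85 ± 0.44, against 8.59 ± 0.20 in HUTU-80 and 8.50 ± 0.34 in NCI-H716), as HOXA2 was, and JAZF1 was above background in MDST8 alone (6.68 ± 0.45). By cluster C, CBX5, which encodes the heterochromatin protein HP1 alpha, was lower in HUTU-80 than in NCI-H716 by 1.98 ± 0.10.

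Retinoic acid switches on HOX genes from the 3′ end, and Polycomb and Trithorax proteins keep them off or on. Of 20 measured genes of these systems, 15, 13 and 16 were above the level in HUTU-80, MDST8 and NCI-H716. Called higher and lower were 4 and 0 between HUTU-80 and MDST8 (median 0.494), 4 and 3 between HUTU-80 and NCI-H716 (0.252), and 2 and 5 between MDST8 and NCI-H716 (−0.267). The largest differences were in the enzymes that make retinoic acid, of which each line had another set. ALDH1A1 was 12.99 ± 0.06 in HUTU-80, 10.69 ± 0.19 in NCI-H716 and at background in MDST8 (3.05 ± 0.25), ALDH1A2 was above background in NCI-H716 alone (11.33 ± 0.19), and ALDH1A3 was 10.83 ± 0.51 in HUTU-80, 11.18 ± 0.27 in MDST8 and at background in NCI-H716 (3.59 ± 0.51). RARB, a retinoic acid receptor that is itself induced by it, was above background in HUTU-80 (6.47 ± 0.09) and NCI-H716 (7.47 ± 0.45) and at background in MDST8 (3.87 ± 0.34). RXRA, its partner, was higher in HUTU-80 than in MDST8 by 1.34 ± 0.17. CYP26A1, which breaks retinoic acid down, was above background in NCI-H716 alone (6.48 ± 0.74), higher there than in HUTU-80 by 2.55 ± 0.33.

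The next question was whether the miR-200 constructs moved the HOX genes within a line. With any construct, and with miR-200c141 or miR-200ba429 alone, 0 of 29 members passed the test at an adjusted p under 0.05, and neither did any other gene (0% of 19774 in limma). At an unadjusted p under 0.05 there were 1 (HOXD3, at background in every line), 0 and 0 members and 1851, 1302 and 1214 genes. The median change of the members was −0.057, 0.064 and 0.014, beside 0.001, 0.003 and −0.005 over all genes. Among the members above background, those with the largest change with any construct were HOXC4 (−0.29 ± 0.20), HOXC6 (−0.24 ± 0.17) and HOXC10 (−0.24 ± 0.16, SE, 8 samples against 3). With miR-200c141 they were HOXC10 (−0.25 ± 0.20), HOXB4 (−0.24 ± 0.28) and HOXB2 (0.22 ± 0.19), and with miR-200ba429 HOXB4 (−0.32 ± 0.28), HOXC10 (−0.30 ± 0.20) and HOXC6 (−0.19 ± 0.19, SE, 3 samples against 3). The value for HOXC10 includes NCI-H716, where it is at background. Those for HOXB4 include MDST8 and NCI-H716, where its means are at background. With miR-200c141 and miR-200ba429 HOXB4 read −0.178 and −0.621 from the control in HUTU-80, 0.456 and 0.298 in MDST8, and −0.999 and −0.648 in NCI-H716.

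With both clusters, in MDST8 and NCI-H716, 2 of 29 members fell and 0 rose, where 3.81% of all genes fell and 2.33% rose (6.14% called in limma). HOXB8 went from 9.23 in the MDST8 control to 8.71 and from 8.54 in the NCI-H716 control to 7.68, a fitted change of −0.73 ± 0.18 (SE, 2 samples against 3 controls, limma adjusted p 0.03596). HOXC4 went from 7.75 to 7.12 and from 8.26 to 7.32, a fitted change of −0.77 ± 0.20 (limma adjusted p 0.045). Both samples with both clusters were thus below the control of their line and below the single constructs. The calls were narrow: over 22 alternatives that of HOXB8 ended in 12 and that of HOXC4 in 16, with adjusted p from 0.01707 to 0.9991 and from 0.02911 to 0.9991, and the direction never turned. Without the line as a term no member was called and HOXC4 stood at −0.055. HOXB8 stood at −0.191 when its probe sets were averaged. HOXB8 lost its call without the control of HUTU-80 or NCI-H716, its miR-200ba429 sample in either of these lines, or either sample with both clusters, and HOXC4 lost it without any 1 of the 3 controls or of 6 other arrays.

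HOXB6 stood beside them at −0.74 ± 0.22 (SE, limma adjusted p 0.0778) and did not pass; its values were −0.65 for MDST8 and −0.61 for NCI-H716. HOXB9 (−0.67 ± 0.26), HOXC13 (−0.75 ± 0.34) and HOXB13 (−0.65 ± 0.31) did not pass either, with adjusted p of 0.154, 0.2257 and 0.2456. HOXC13 read −1.276 from the control in MDST8 and −0.264 in NCI-H716, and its fitted change was −0.074 without the MDST8 array with both clusters and −1.426 (limma adjusted p 0.02204) without the NCI-H716 one. HOXB13 read −1.403 from the control in NCI-H716 and −0.019 in MDST8, where it was at background. Over all 29 members 18 had a negative value, with a median of −0.154 beside 0 over all genes. On both arrays with both clusters the 3′ to 5′ difference of the ACTB and GAPDH control probe sets, a sign of RNA quality, was the highest of its line, at 2.019 for ACTB in MDST8 (1.497 to 1.539 on its other arrays) and 2.626 in NCI-H716 (2.327 to 2.405). Its part in the lower HOX values was not tested. ZEB1 and VIM of the mesenchymal markers fell in the same comparison (2 of 8), while 0 of 9 epithelial markers passed, at a median of 0.684. That comparison averages the lines, and these differed: in NCI-H716 CDH1 was 5.02 above the control, VIL1 3.29 and EPCAM 3.10, where in MDST8 they were 0.085, 0.411 and −0.116 from it.

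**Figure D5:**
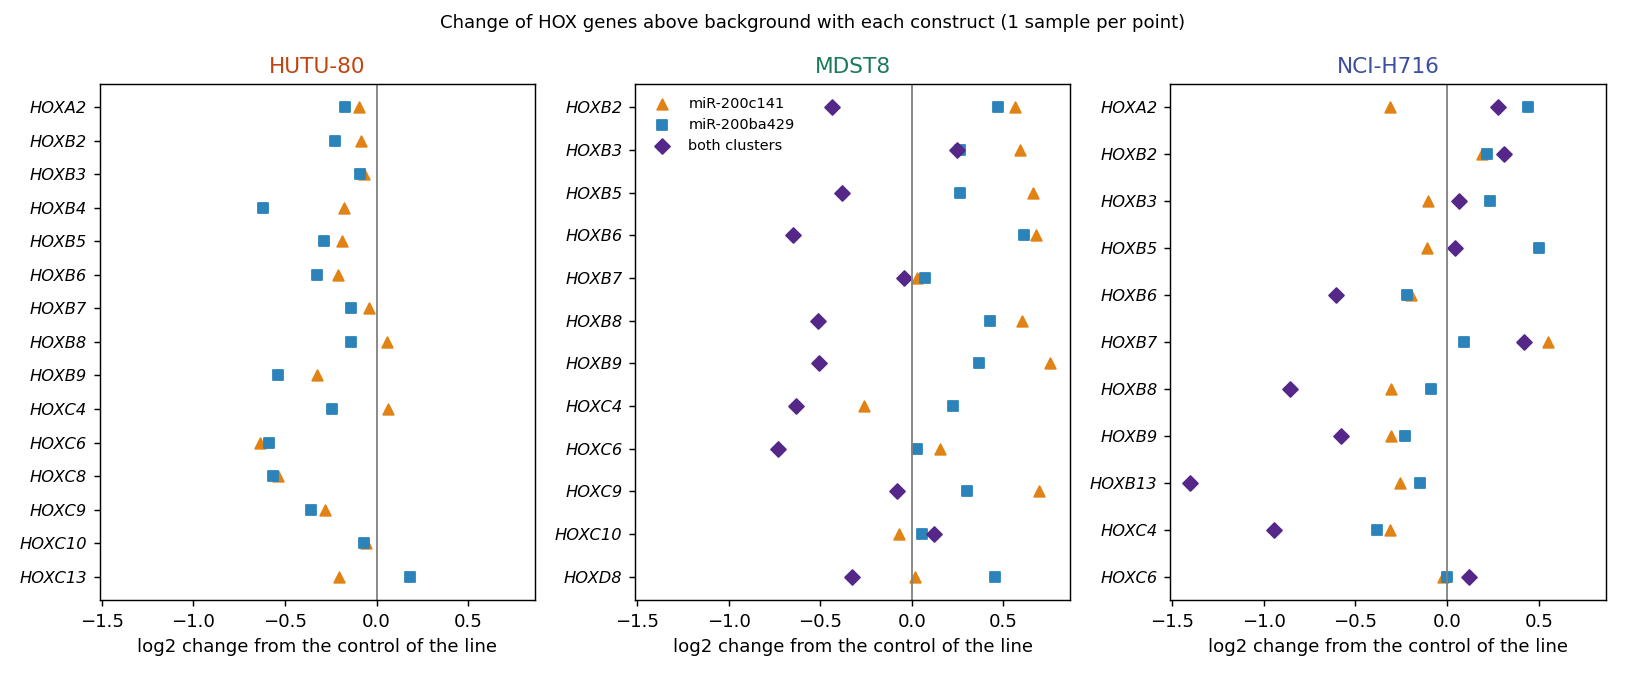
Log2 change from the control of the same line (horizontal axis) for the members above background in that line (rows), 1 sample per point, by construct. In MDST8 the single constructs lie mostly right of 0 and both clusters mostly left, in HUTU-80 most points lie left of 0, and HOXB13 in NCI-H716 with both clusters is farthest from 0 at −1.403.

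Within each line the members moved together on several arrays, by amounts that the single control of the line enters every time. In HUTU-80, 13 of 15 members above background were lower with miR-200c141 (median −0.178) and 14 of 15 with miR-200ba429 (−0.246), beside 51.2% and 49.6% of all 9261 genes above background there. In MDST8, 10 of 12 were higher with miR-200c141 (median 0.576, led by HOXB9 at 0.757) and 12 of 12 with miR-200ba429 (0.281, led by HOXB6 at 0.614), while 10 of 12 were lower with both clusters (−0.407, led by HOXC6 at −0.733). Of all 9628 genes above background in MDST8, 50.9%, 50.2% and 50.3% were lower in these samples. In NCI-H716 the medians were −0.197, 0.0 and 0.044 over 11 members, and the members parted with both clusters, HOXC4 (−0.946), HOXB8 (−0.855), HOXB6 (−0.608) and HOXB9 (−0.576) down beside HOXB13, and HOXB7 (0.421) and HOXB2 (0.312) up. These are values of single samples with no replicate, and neighbouring genes of a cluster are not independent. For scale, the HUTU-80 pair with miR-200c141 differed by a median of 0.132 over 15 members and by at most 0.471, for HOXC8.

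A moderated F over the interaction of line and any construct asked whether the response differed by line. In limma 0 of 29 members passed (adjusted p 0.9998, 0 at an unadjusted p under 0.05), and 1 of 19774 genes did (0.00506%). This test pools all constructs of a line, and the opposite signs in HUTU-80 and MDST8 with single constructs were not tested apart. The spread of a member over the samples of its line, constructs included, was 0.164 for HUTU-80, 0.386 for MDST8 and 0.261 for NCI-H716 as the median SD of the members above background.

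In the comparisons of any construct, miR-200c141 and miR-200ba429, which called no gene at all, 0 members of the cofactor, ParaHox, gut region, cluster RNA, neighbour and regulator lists were called. Some single samples still lay far from the control of their line, as BRINP3 in MDST8 did at −3.22 with miR-200c141, −2.52 with miR-200ba429 and −3.18 with both clusters, from a control of 6.54. SOX2 read −1.92 from the control with both clusters in MDST8. HOXD-AS2 read −1.53 there. With both clusters 1 of 23 neighbours was called higher and 3 lower, against 6.14% of all genes called (2.33% higher and 3.81% lower). TAX1BP1, an autophagy receptor gene by cluster A, rose by 0.47 ± 0.11, and CBX5 (−0.61 ± 0.12), HNRNPA1, a splicing factor (−0.22 ± 0.05), and ATP5MC2, a subunit of ATP synthase (−0.69 ± 0.09), all by cluster C, fell (SE; limma adjusted p 0.03229, 0.01968, 0.02686 and 0.00277). In the other lists with both clusters 0 of 8 cofactors, 0 of 12 cluster RNAs and 0 of 20 regulators passed, with medians of −0.185, 0.006 and −0.157.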

How the data were processed

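Total RNA was hybridised to 12 Affymetrix U133 Plus arrays. The authors deposited log2 intensity values for each probe set, which RMA gave per the submitters' processing notes, and these were taken unchanged. RMA quantile normalizes arrays, so a shift shared by most genes cannot be seen. Of 54715 probe sets, 40920 name a single gene, and 864 that name several, among them 1 of HOXD4, were left out. Each of 19774 genes was read from its brightest probe set, and the symbols of all 29 HOX genes matched RefSeq by Entrez number.

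Fits used limma 3.58.1 in R 4.3.3 and data.table at version 1.17.8 (lmFit, then eBayes with a variance trend), with Benjamini-Hochberg adjustment over all genes and two-sided p. The HUTU-80 pair with miR-200c141 was averaged, which left 11 samples, and group and cell line were terms. The line term pairs each sample with the control of its own line and so acts as a replicate block. The number of arrays limits the precision, with 5 residual degrees of freedom (7 for any construct). The fits were tested on simulated data with known changes and independent noise for each gene and sample. Shifts shared by neighbouring genes or carried by a single array were not simulated.

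The members and lists were chosen with earlier results of these data known. Members above background in any line, called members and the 3 largest changes where none was called are given with values, and of each other list the called genes with the 3 largest differences between lines and all genes called with a construct. Alternatives were the mean of probe sets, a filter on dim genes, separate HUTU-80 arrays, no variance trend, median centring, other thresholds and background levels, and leaving out arrays, lines, terms or groups.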

Additional observations from a re-analysis of the deposited data

Results flagged for a closer look

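HOXC6 in NCI-H716 was set apart by its sample with both clusters, at 10.093, while the other samples of that line lay between 9.951 and 9.972. The gap is small in size and stands out because the others lie so close together. It was the only value so far from the rest of its line among 23 sets of 4 samples examined in MDST8 and NCI-H716, and chance gives about 1 in 20.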

How the results depend on the processing

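Of 30 calls between lines, 16 held under every alternative that was run, and over 625 alternative values 598 kept the call, 27 lost it and 0 turned direction. With no minimum difference 17 members were called between HUTU-80 and MDST8 (9 in the report) and 17 between MDST8 and NCI-H716 (11), and with at least 2 log2 units 5 and 3. Leaving out 1 array at a time gave 8 to 11, 9 to 11 and, between HUTU-80 and NCI-H716, 10 to 10. Array medians over the genes differed by line (4.823 to 4.892 in HUTU-80, 5.137 to 5.222 in MDST8, 5.008 to 5.087 in NCI-H716), and with arrays centred on them the share of higher calls over all genes between HUTU-80 and MDST8 moved from 45.4% to 63.2%. With both clusters the count of 2 members became 1 with the mean of all probe sets, arrays centred on their median or without NCI-H716, and 0 with no variance trend, only the groups compared, or without HUTU-80. Without the replicate block, that is without the line term, it was 0, and the block changed no other count of construct calls. Leaving out 1 array gave 0 to 3. With single or any constructs every alternative gave 0 members. At a background level of 3.808 (the 95th percentile of the nonspecific controls), 20, 19 and 18 members passed for HUTU-80, MDST8 and NCI-H716, since dim signals then count; HOXB4 and HOXC13 then passed in all lines and HOXB13 in MDST8 too (3.816). At a level of 6.429 the counts were 13, 10 and 9, and HOXB13 and HOXD8 passed in no line. The interaction could not be fitted without a control array. Signal over background limits what can be said of the 12 dim members.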
